A study of Mus musculus with 12 samples.

Results

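The collagen genes of mouse retinal pigment epithelium (RPE) are described here in wild-type (WT) and rd6 mice. Collagen genes were taken as all entries whose symbol is Col, a number, the letter a and a number, with a mean normalized count of at least 1 over the libraries. This rule took 44 of the 28591 genes measured, and it uses the name and the overall level, not the genotype. Of the 44, 38 had a mean of at least 10 and were tested, and the other 6 are given by their reads only.

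The data are total-RNA sequencing libraries of RPE, 12 in all, from mice 1 mo old. The WT group has 6 libraries from C57BL/6J mice with an intact *Mfrp* gene. The rd6 group has 6 libraries from mice that carry the rd6 allele of *Mfrp* on both chromosomes (genotype Mfrp rd6/rd6), and no library was treated in any way that the labels state. *Mfrp* encodes membrane frizzled-related protein, and rd6 is a germline allele, so every tissue carries it and not the RPE alone, and mice of this strain develop slow retinal degeneration and small eyes. The labels do not say whether the WT mice were littermates. Each library pools RPE of both eyes, taken after the anterior segment and the neural retina had been removed, and the eyecup was then kept in an RNA-preserving reagent by a published procedure for collecting RPE. No sort for cell type is described. The values are normalized counts, the reads on a gene after division by the size factor that DESeq2 gave each library. The libraries held 28907262 to 33152725 reads on genes, so a gene with 3 reads has a normalized count of 2.71 to 3.32, and such floors cover counting error only.

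*Mfrp* itself was 30132 to 45442 in WT and 20442 to 29732 in rd6, so transcript of the mutant allele was still counted, at a level below every WT library (1.54-fold lower, limma, Benjamini-Hochberg adjusted p or q = 0.00126). The label of the tissue was checked with 12 RPE markers. Their summed counts were 1536308 to 2302881 in WT and 1451592 to 1941332 in rd6, and of the 12 only *Best1*, a chloride channel of the RPE, was near the detection limit, with 9.33 to 48.7 counts over both genotypes. Of these markers 5 were lower in rd6 (*Rpe65*, *Rlbp1*, *Lrat*, *Rgr* and *Rrh*), 41.7% beside 11.6% of all genes at q below 0.05, and none was higher, beside 11.4%. Libraries also held RNA of other cells. A list of 10 markers of surface epithelium such as the cornea summed to 7922 to 207532 in WT and 9358 to 129719 in rd6, with WT replicate 4, rd6 replicate 5 and rd6 replicate 1 far above the rest.

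Collagens are proteins of 3 chains wound into a triple helix, which needs a glycine at a fixed interval all along each chain. Fibrillar collagens (types I, II, III, V, XI, XXIV and XXVII) make the fibrils of stroma, the type IV chains make the sheet of basement membranes, and type VIII makes hexagonal lattices. The RPE rests on Bruch's membrane, a layered matrix between the epithelium and the choroidal capillaries, to which the RPE and the choroid both contribute. Its own basement membrane, with type IV and type XVIII collagen, forms the innermost of these layers.

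The glycine repeat can be read in the coding sequence, since every glycine codon begins with GG. The stretches below come from the longest uninterrupted repeat of each of the 6 collagen genes with the highest level per kb of exon, and are shown because the report turns on these genes. Each is 45 bases of the coding strand within 1 exon, read 5′ to 3′ from the GENCODE M21 transcript with the longest complete coding sequence (GRCm38), with the glycine codon that opens each triplet of codons in capitals.
Col8a1, chr16:57628039-57628083, minus strand, exon 4: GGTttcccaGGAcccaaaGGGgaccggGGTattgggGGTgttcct
Col8a2, chr4:126311141-126311185, plus strand, exon 4: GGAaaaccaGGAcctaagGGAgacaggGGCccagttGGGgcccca
Col18a1, chr10:77077702-77077746, minus strand, exon 12: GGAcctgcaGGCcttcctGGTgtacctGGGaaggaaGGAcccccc
Col9a3, chr2:180605727-180605771, plus strand, exon 13: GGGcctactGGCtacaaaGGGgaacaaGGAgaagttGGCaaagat
Col4a3, chr1:82643209-82643253, plus strand, exon 3: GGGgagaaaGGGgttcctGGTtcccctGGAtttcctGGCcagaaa
Col4a4, chr1:82491535-82491579, minus strand, exon 29: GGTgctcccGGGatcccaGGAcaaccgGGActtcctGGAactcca

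The length of the repeat set the fibrillar genes apart from the other classes. A block was counted wherever at least 5 codon triplets in a row began with a glycine codon. The longest block of the 11 fibrillar genes had 216 to 344 triplets, against at most 113 in any other collagen gene. The 6 type IV genes instead had 22 to 27 blocks each, none longer than 66 triplets, so that their helix is interrupted many times. *Col8a1* and *Col8a2* had 9 blocks each, with longest blocks of 60 and 59 triplets in 744 and 699 codons. *Col18a1* had 14 blocks of at most 30 triplets, and only 28.6% of its 1774 codons lay in them, against 63.5% of the codons of *Col8a2*.

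Levels of different genes were compared per kb of exon, the union of all exons annotated for the gene. In WT RPE the level of *Col8a2* was 21609 ± 2915 normalized counts per kb (mean ± SD, n = 6, as for all values given this way). *Col9a3* followed at 10290 ± 2121 and *Col8a1* at 8307 ± 1026, a pair whose spreads overlap, though *Col9a3* was the higher within each WT library. *Col18a1* stood at 2904 ± 181, below them all. *Col4a4* and *Col4a3* came next, at 1174 ± 249 and 1049 ± 200 per kb. Their spreads overlap, but *Col4a4* was the higher within each WT library, with a ratio of *Col4a3* to *Col4a4* of 0.871 to 0.948. *Col1a1*, the first fibrillar gene in this order, had 359 ± 79.8 per kb. The 6 genes above it made up 94.3% ± 2.89 of the summed per-kb level of collagens in WT and 94.0% ± 2.07 in rd6.

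**Figure D1:**
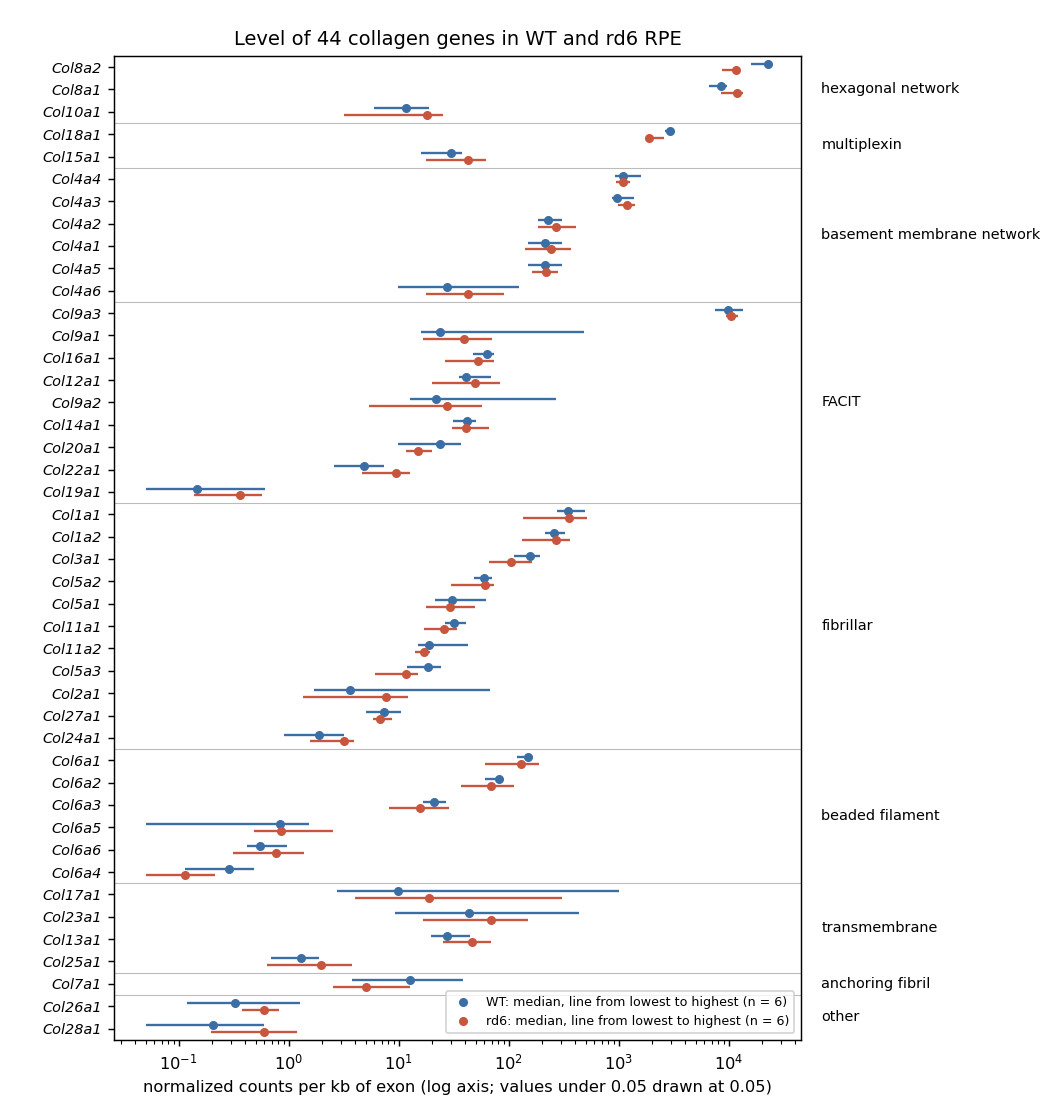
Level of the 44 collagen genes per library, in normalized counts per kb of exon on a log axis, sorted by class and level. Points are medians and lines run from the lowest to the highest of the 6 WT (blue) or 6 rd6 (red) libraries; the 6 highest genes belong to 4 classes, and long lines mark genes that differ strongly between libraries of 1 genotype.

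In rd6 RPE the order at the top changed. *Col8a1* stood at 11609 ± 1758 per kb, *Col8a2* at 11160 ± 1501 and *Col9a3* at 10498 ± 998, values that lie within each other's spread. The share of *Col8a2* in the per-kb level of all collagens was 45.0% ± 3.31 in WT and 27.9% ± 1.74 in rd6, while that of *Col8a1* was 17.3% ± 0.517 and 29.0% ± 1.56. All collagen genes together took 0.852% ± 0.0755 of the normalized counts in WT and 0.790% ± 0.0769 in rd6.

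Against WT, 1 of the 38 tested collagen genes was higher in rd6 (*Col8a1*) and 3 were lower (*Col8a2*, *Col18a1* and *Col5a3*) at q below 0.05, by limma on log2(normalized count + 1). Over all 17768 genes tested, 11.4% were higher and 11.6% lower by the same rule, beside 2.63% and 7.89% of the 38 collagen genes. With the limit of the study on the size of the change as well (a log2 change of 0.81), only *Col8a2* remained, lower in rd6, beside 4.69% of all genes higher and 2.12% lower. In 2 collagen genes, *Col8a2* and *Col18a1*, and in 5.67% of all genes the rd6 libraries all fell below the WT libraries. In no collagen gene, and in 5.77% of all genes, did they all exceed them. The median log2 fold change of the 38 genes was -0.07, with 16 above 0 and 22 below, and that of all genes was 0.005. The median of the collagen genes was 0.06 without WT replicate 4, 0.01 without rd6 replicate 4 and -0.20 without rd6 replicate 1, so its sign rests on single libraries. At an unadjusted p under 0.05 there were 3 higher and 4 lower collagen genes, 7.89% and 10.5% of them, beside 17.2% and 18.1% of all genes. The labels number the libraries as replicates but do not say that each is a different animal. The study describes the 6 libraries of a group as independent replicates. The p-values measure the spread between these libraries. The libraries also hold RNA of other cells, so a lower count can come from fewer cells of a type or from less RNA per cell, and these cannot be told apart.

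**Figure D2:**
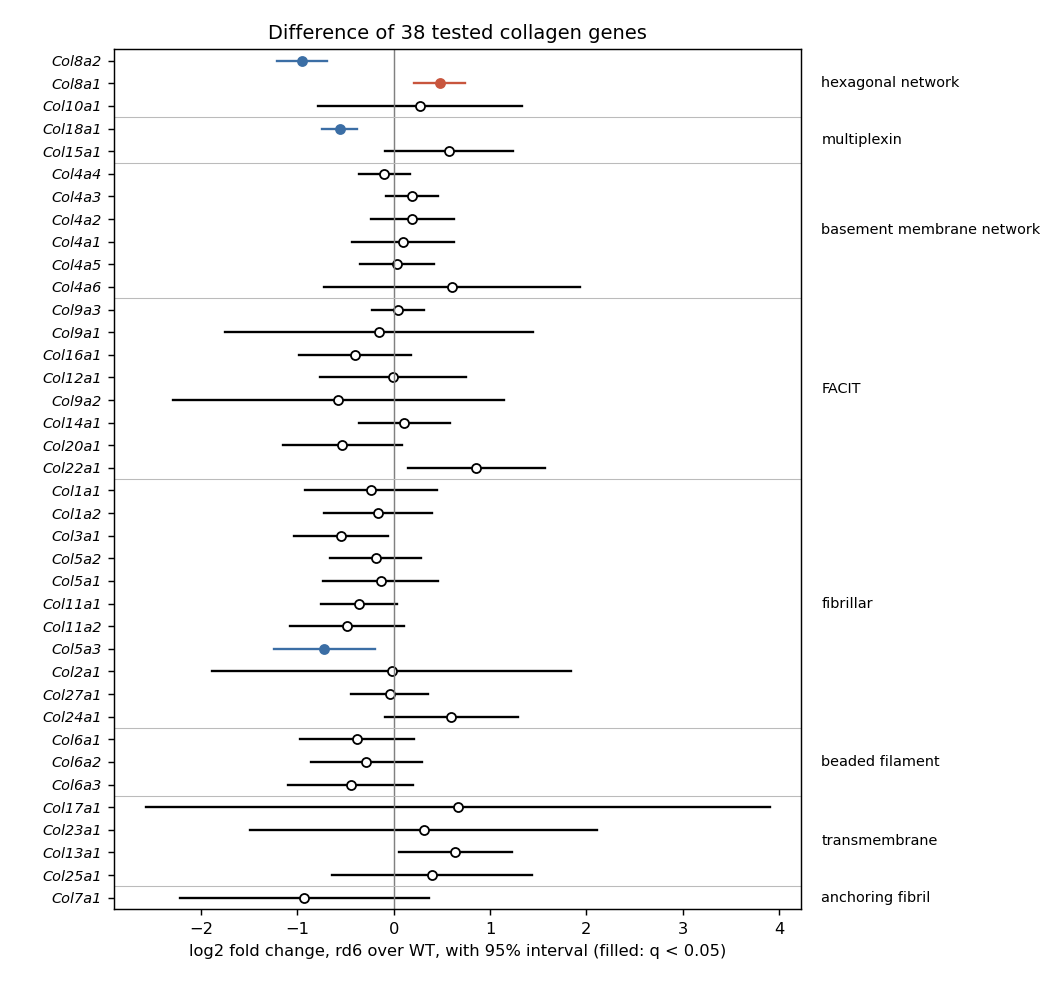
Difference between rd6 and WT for the 38 tested collagen genes by class, as log2 fold change with its 95% interval from limma. Filled points have q below 0.05: *Col8a1* lies above 0, and *Col8a2*, *Col18a1* and *Col5a3* lie below.

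Type VIII collagen showed the main change, and its 2 chains moved in opposite directions. These short chains form the lattice of Descemet's membrane in the cornea and are also found in Bruch's membrane and vessel walls, and they can assemble as homotrimers or together. *Col8a2* (chr4:126286793-126314330, plus strand) had 70914, 102443 and 105424 normalized counts as lowest, median and highest WT value and 38577, 52222 and 56130 in rd6. All 6 rd6 libraries were below the lowest WT library. The log2 fold change was -0.95 ± 0.12 (SE), 1.94-fold lower, with q = 0.000114. *Col8a1* (chr16:57624258-57754737, minus strand) had 51582, 66005 and 76149 in WT and 66909, 92791 and 105647 in rd6. Of its rd6 libraries all but replicate 5 exceeded the highest WT library, and the groups overlapped through that one. Its log2 fold change was 0.48 ± 0.12, 1.39-fold higher, with q = 0.0128.

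**Figure D3:**
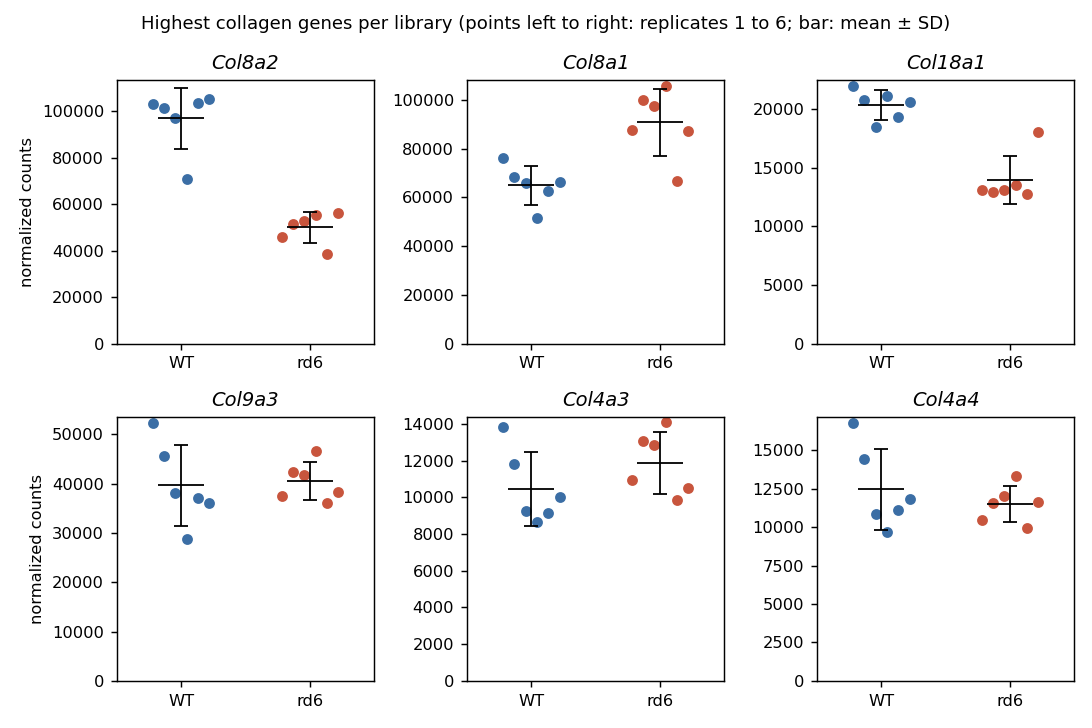
Normalized counts of the 6 collagen genes with the highest level per kb in each WT and rd6 library, on axes that start at 0. Each point is 1 library and bars give the mean ± SD of 6: *Col8a2* and *Col18a1* separate the genotypes downward, *Col8a1* is higher with 1 overlapping rd6 library, and *Col9a3*, *Col4a3* and *Col4a4* overlap widely.

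The ratio of the 2 chains is a value of each library on its own and does not depend on the scaling between libraries. Per kb, *Col8a1* over *Col8a2* was 0.346 to 0.422 in WT (mean 0.386 ± 0.0304) and 0.891 to 1.11 in rd6 (mean 1.04 ± 0.0847). No rd6 library came near a WT library. Of the libraries rich in surface epithelium, WT replicate 4 had 0.417, rd6 replicate 1 had 1.10 and rd6 replicate 5 had 0.994. This ratio was examined after both genes had been seen to differ, so it is given as a description without a test. The 2 chains summed to 29916 ± 3798 per kb in WT and 22769 ± 3110 in rd6. Both *Col8a1* and *Col8a2* kept their call and direction under all 23 alternative analyses, with log2 fold changes of 0.41 to 0.56 and of -1.04 to -0.88. *Col10a1*, the third short-chain gene and a product of hypertrophic cartilage, was low at 18.5 to 58.8 counts in WT and 9.93 to 78.5 in rd6 and did not pass (q = 0.723).

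**Figure D4:**
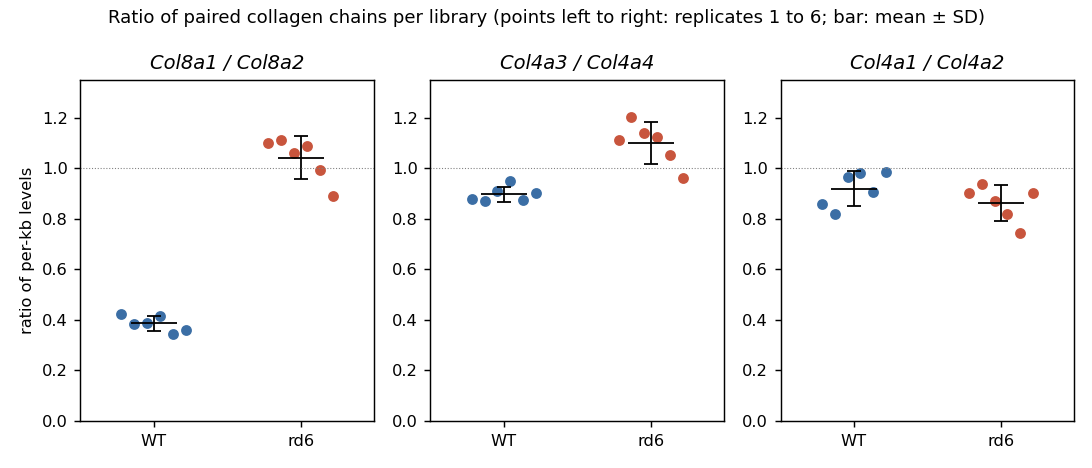
Ratio of the per-kb levels of 3 chain pairs in each library, with the mean ± SD of 6 as bars and a dotted line at 1. For *Col8a1* over *Col8a2* and for *Col4a3* over *Col4a4* all rd6 libraries lie above all WT libraries, and for *Col4a1* over *Col4a2* the genotypes overlap.

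The sequences before the starts of the 2 type VIII genes are shown because their transcripts moved in opposite directions. Both are the 250 bases before the RefSeq start (GRCm38.p6), on the strand of the gene, with every match of the GC box GGGCGG on either strand in capitals, and touching matches run together.
Col8a1, chr16:57754738-57754987, minus strand: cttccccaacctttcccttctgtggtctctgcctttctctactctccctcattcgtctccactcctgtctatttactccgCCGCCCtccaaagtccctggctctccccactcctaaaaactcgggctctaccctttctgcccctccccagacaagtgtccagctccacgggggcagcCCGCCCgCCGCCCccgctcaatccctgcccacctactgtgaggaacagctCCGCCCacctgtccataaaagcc
Col8a2, chr4:126286544-126286793, plus strand: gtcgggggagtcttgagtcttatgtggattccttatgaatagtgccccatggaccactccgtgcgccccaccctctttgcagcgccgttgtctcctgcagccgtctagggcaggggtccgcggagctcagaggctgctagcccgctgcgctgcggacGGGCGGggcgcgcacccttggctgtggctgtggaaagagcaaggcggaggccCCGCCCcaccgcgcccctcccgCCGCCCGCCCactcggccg

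Each window held 4 matches of the GC box, the nearest beginning 23 bases before the start of *Col8a1* and 15 bases before that of *Col8a2*, and 32.7% of the 32851 RefSeq promoter windows of this length hold at least 1. The bases G and C made up 60.8% and 70.0% of the 2 windows, against a median of 52.4% over all windows. Neither held the TATA box TATAAA, found in 12.4% of all windows, or the CCAAT box, found in 33.8%. Also without a match on either strand were the E-box CACGTG (in 6.02% of all windows), the E-box CATGTG (in 12.3%), the AP-1 site TGANTCA (in 6.75%) and the OTX core TAATCC (in 6.25%). The 2 windows thus shared the motif that was found and lacked the same others.

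*Col18a1* was the second collagen gene that separated the genotypes. It encodes the core of type XVIII collagen, a basement membrane proteoglycan whose C-terminal fragment is endostatin, and together with *Col15a1* it makes up the multiplexin class. *Col18a1* (chr10:77052178-77166548, minus strand) had 18507, 20696 and 22015 counts as lowest, median and highest WT value and 12752, 13124 and 18094 in rd6. Of the rd6 libraries, 5 lay between 12752 and 13534 and replicate 6 stood apart at 18094, still below all WT libraries. The log2 fold change was -0.56 ± 0.08, 1.47-fold lower, with q = 0.000448, and it ranged from -0.64 to -0.50 with the call kept over the 23 alternatives. Without the 3 libraries rich in surface epithelium the log2 fold changes of *Col8a1*, *Col8a2* and *Col18a1* were 0.53, -0.92 and -0.50. *Col15a1*, which is found in the basement membrane zone of capillaries, muscle and nerves, was 102 to 240 in WT and 113 to 391 in rd6, a log2 fold change of 0.57 ± 0.31 that did not pass (q = 0.207). Without rd6 replicate 4 *Col15a1* passed, at 0.79 (q = 0.0466).

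The values of the RPE markers stand beside these falls. The log2 fold changes of all 12 ran from -0.98 to 0.57 with a median of -0.26, and 9 were below 0. The 5 that passed, all lower in rd6, are genes of retinoid handling and RPE opsins and had -0.98 (*Lrat*), -0.88 (*Rgr*), -0.79 (*Rpe65*), -0.46 (*Rlbp1*) and -0.36 (*Rrh*). The other 7 did not pass: *Best1*, *Ttr* and *Tyrp1* had 0.57, 0.25 and 0.18, and *Rdh5*, *Slc16a8*, *Otx2* and *Mitf* had -0.34, -0.17, -0.18 and -0.15. Other lists also held genes that were lower in rd6. Schwann cell markers summed to 10551 to 12443 counts in WT and 6636 to 7781 in rd6, without overlap, and 4 of the 7 tested were lower. Rod markers summed to 51380 to 90929 and 28978 to 74770, with 5 of 10 lower and a median log2 fold change of -0.96. Of 6 melanocyte markers 2 were lower (*Sox10*, also in the Schwann cell list, and *Ednrb*). This list summed to 25979 to 33169 counts in WT (median 28456) and to 23450 to 29384 in rd6 (median 28564). These shares stand beside 11.6% of all genes lower, and no gene of these 3 lists was called higher. Mural cell markers had 3 of 10 higher, beside 11.4% of all genes, and none lower, with sums of 10981 to 13834 and 11935 to 14244. Müller glia markers had 2 of 8 higher and 1 lower, 25.0% and 12.5% beside 11.4% and 11.6% of all genes. Among their log2 fold changes 6 were negative, and the median was -0.25. Their sums went the other way, from 263069 to 312268 counts in WT (median 276632) and from 301501 to 389524 in rd6 (median 338321). The endothelial list, described with *Col4a1*, had 8 of 10 higher. The part of these cell types in the values of *Col8a1*, *Col8a2* and *Col18a1* was not tested.

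None of the 6 type IV genes passed the test, with log2 fold changes between -0.10 and 0.61 and a median of 0.15. Type IV chains assemble in 3 combinations: α1 with α2 in nearly all basement membranes, α3 with α4 and α5 in kidney, lung, eye and ear, and α5 with α6 in skin and some others. Their genes lie head to head in 3 pairs, so that the members of a pair start close together on opposite strands. In the RPE, the α3 and α4 genes were the abundant ones. *Col4a3* had 8645 to 13836 counts in WT and 9848 to 14088 in rd6, with a log2 fold change of 0.19 ± 0.12 (q = 0.290). *Col4a4* had 9704 to 16794 and 9960 to 13350, with -0.10 ± 0.12 (q = 0.614). In both genes WT replicates 1 and 2 were the highest WT libraries, and the genotypes overlapped.

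Within each library, however, the ratio of *Col4a3* to *Col4a4* per kb was 0.871 to 0.948 in WT and 0.961 to 1.20 in rd6, without overlap (means 0.897 ± 0.0295 and 1.10 ± 0.0830). Over the WT libraries each gene alone varied more, 1.60 times for *Col4a3* and 1.73 times for *Col4a4* from the lowest to the highest. Like the ratio of the type VIII chains, it was examined after the values were seen and was not tested. *Col4a3* shares 563 exon bases with *C430014B12Rik* on the other strand, and the sources do not state if strand was used in counting, so its values and this ratio are uncertain to that extent. The starts of the 2 genes are 71 bases apart, at chr1:82586849 for *Col4a4* and chr1:82586921 for *Col4a3*. The bases between them are shown as the only sequence upstream of both, on the plus strand, with no GC box among them.
Col4a4 to Col4a3, chr1:82586850-82586920: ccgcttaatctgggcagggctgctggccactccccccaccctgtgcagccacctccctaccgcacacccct

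*Col4a1* and *Col4a2*, the chains of the widespread network, stood at 217 ± 50.2 and 235 ± 40.2 counts per kb in WT and 244 ± 95.3 and 279 ± 94.1 in rd6. Their ratio was 0.742 to 0.986 in all 12 libraries, so they moved together from library to library. *Col4a1* was 2762, 2430 and 2090 in rd6 replicates 1 to 3, between 1046 and 1488 in the other rd6 libraries, and 1126 to 2264 in WT. Replicates 1 to 3 are also the rd6 libraries with the highest sums of 10 endothelial markers, at 24697, 24185 and 19250 against 10565 to 15944 in the other rd6 libraries and 6561 to 12211 in WT. In WT, replicate 6 had the highest *Col4a1* (2264) with an endothelial sum of 7813, and replicate 3 the highest endothelial sum (12211) with 1619 counts of *Col4a1*. In all, 8 of these 10 markers were higher in rd6, beside 11.4% of all genes. The part of endothelial RNA in these values was not tested. *Col4a1* and *Col4a2* overlap by 22 exon bases. *Col4a5* was 996 to 2032 in WT and 1095 to 1865 in rd6 (log2 fold change 0.04 ± 0.18, q = 0.908). *Col4a6*, the partner of *Col4a5* in squamous epithelia, spanned 78.6 to 987 within WT alone, with WT replicate 4 the highest, and 141 to 729 in rd6 (0.61 ± 0.61, q = 0.514). Its log2 fold change was 1.04 without WT replicate 4 and 0.31 without WT replicate 5.

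*Col9a3* was the most abundant collagen gene that was not called. It encodes 1 of the 3 chains of type IX, a collagen that sits on the surface of type II fibrils in cartilage and vitreous and belongs to the class of fibril-associated collagens with interrupted helices (FACIT). Its counts were 28870, 37555 and 52318 as lowest, median and highest WT value and 36088, 40086 and 46526 in rd6, with a log2 fold change of 0.05 ± 0.13 (95% interval -0.22 to 0.32, q = 0.813). The partner chains were far lower: *Col9a1* had a median of 120 counts in WT and 198 in rd6, and *Col9a2* 67.7 and 84.4. WT replicate 4 stood above all other libraries, at 2442 and 835 counts of the 2 genes. Per kb, *Col9a3* exceeded *Col9a1* by 15.6 to 728 times over the libraries, with the smallest excess in WT replicate 4, where surface epithelium markers peaked. *Col2a1*, the fibril chain that type IX usually decorates, was at 15.8 to 621 counts in WT and 12.4 to 113 in rd6. The 8 listed markers of cartilage or sclera in the table summed to 4122 to 6745 counts in WT and 4193 to 5827 in rd6, most of it *Sox9*, a transcription factor that other cells also use. *Sox9* was the 1 called marker of the 5 tested and was lower in rd6 (q = 0.0414), 1 of 5 beside 11.6% of all genes. *Acan*, *Hapln1* and *Ucma* were at or below a mean of 11.4 counts in both genotypes, whereas *Chad*, a matrix protein of cartilage, had means of 289 in WT and 689 in rd6 (q = 0.0859). The part of such tissue in the value of *Col9a3* was not tested. *Col9a3* shares 234 exon bases with *Tcfl5* on the other strand. *Tcfl5* had 23.3 to 177 counts over all libraries, far under the count of *Col9a3*, and was lower in rd6 (log2 fold change -1.99 ± 0.22, q = 3.65e-05).

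The other FACIT genes did not pass. Of the class 8 of 9 genes were tested, with a median log2 fold change of -0.08, 3 above 0 and 5 below. *Col12a1*, *Col14a1* and *Col16a1*, which bind fibrils or cells in dense connective tissue, had 686 ± 193, 287 ± 50.3 and 418 ± 72.6 counts in WT and 771 ± 431, 324 ± 120 and 342 ± 150 in rd6. *Col22a1*, a collagen of tissue junctions such as that of muscle and tendon, was 23.9 to 67.7 in WT and 42.4 to 116 in rd6. This was the largest positive log2 fold change among the 38 tested collagen genes, at 0.86 ± 0.33 (q = 0.0777). *Col22a1* passed with DESeq2, without WT replicate 4, without rd6 replicate 5, and without the 3 libraries rich in surface epithelium.

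Of the 11 fibrillar genes 1 (9.09%) passed the test, lower in rd6, a share near the 11.6% of all genes. The log2 fold change was below 0 in 10 of them, with a class median of -0.18, and above 0 in *Col24a1* alone. *Col5a3*, a minor chain of type V that regulates fibril growth, was 81.2 to 165 in WT and 41.1 to 102 in rd6, with -0.72 ± 0.24 (q = 0.0489). It was picked out after its values were seen, and it passed in 11 of the 23 alternatives. The call was lost without WT replicate 1, 2, 3 or 4 and without rd6 replicate 3, 4, 5 or 6, with q of up to 0.108. It was also lost with no filter on low values (q = 0.0644), with a mean of at least 1 as the filter (q = 0.0552), with TMM rescaling (q = 0.0571) and with edgeR on recovered reads (q = 0.0541). *Col3a1*, which forms fine fibrils with type I in vessels and skin, was 1093 to 1884 in WT and 644 to 1596 in rd6 (-0.55 ± 0.22, q = 0.0983). *Col3a1* passed without rd6 replicate 1 (q = 0.0418) and without the 3 libraries rich in surface epithelium (q = 0.0345). *Col5a3* lies on chromosome 9, as *Mfrp* does, 23.3 Mb before it, and 5 other collagen genes lie on that chromosome at 35.5 to 64.9 Mb after it.

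*Col1a1* and *Col1a2*, the chains of type I and the main collagen of sclera and choroidal stroma, overlapped widely between the genotypes. *Col1a1* had 1784, 2290 and 3223 counts as lowest, median and highest WT value and 888, 2300 and 3365 in rd6 (-0.23 ± 0.31, q = 0.631), and its log2 fold change ran from -0.39 without rd6 replicate 2 to -0.006 without rd6 replicate 5. *Col1a2* had 2671, 3221 and 4062 in WT and 1641, 3310 and 4452 in rd6 (-0.16 ± 0.26, q = 0.693). The medians were alike, and the rd6 libraries fell on both sides of WT. *Col1a2* had 4452, 4320 and 4219 counts in rd6 replicates 1 to 3, above every WT library. The counts of the other rd6 libraries, 1641, 1722 and 2401, were below every WT library. The ratio of the 2 chains per kb stayed at 0.666 to 1.02 throughout.

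The beaded filament genes followed the same libraries. *Col6a1*, *Col6a2* and *Col6a3*, the 3 chains of the type VI microfibrils around cells, were 793, 821 and 341 in rd6 replicate 1 and 265, 306 and 124 in rd6 replicate 4, on either side of their WT ranges of 521 to 733, 507 to 744 and 200 to 320. Their log2 fold changes were -0.38, -0.28 and -0.45, and none passed. The other 3 chains, *Col6a4*, *Col6a5* and *Col6a6*, were below the mean of 10 with 0 to 23 reads in a library. Among the 38 tested genes the lowest rd6 library was replicate 5 for 16 and replicate 4 for 12, and the highest was replicate 1 for 17. Fibroblast markers summed to 10562, 10951 and 10262 in rd6 replicates 1 to 3, to 7502 to 8941 in the other rd6 libraries, and to 9412 to 10488 in WT. Of these markers 9 of 10 were tested (*Tcf21* was at 0 to 5.15 counts), and 1 was higher and 2 were lower in rd6, 11.1% and 22.2% beside 11.4% and 11.6% of all genes. The part of stromal RNA in the collagen values was not tested.

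**Figure D5:**
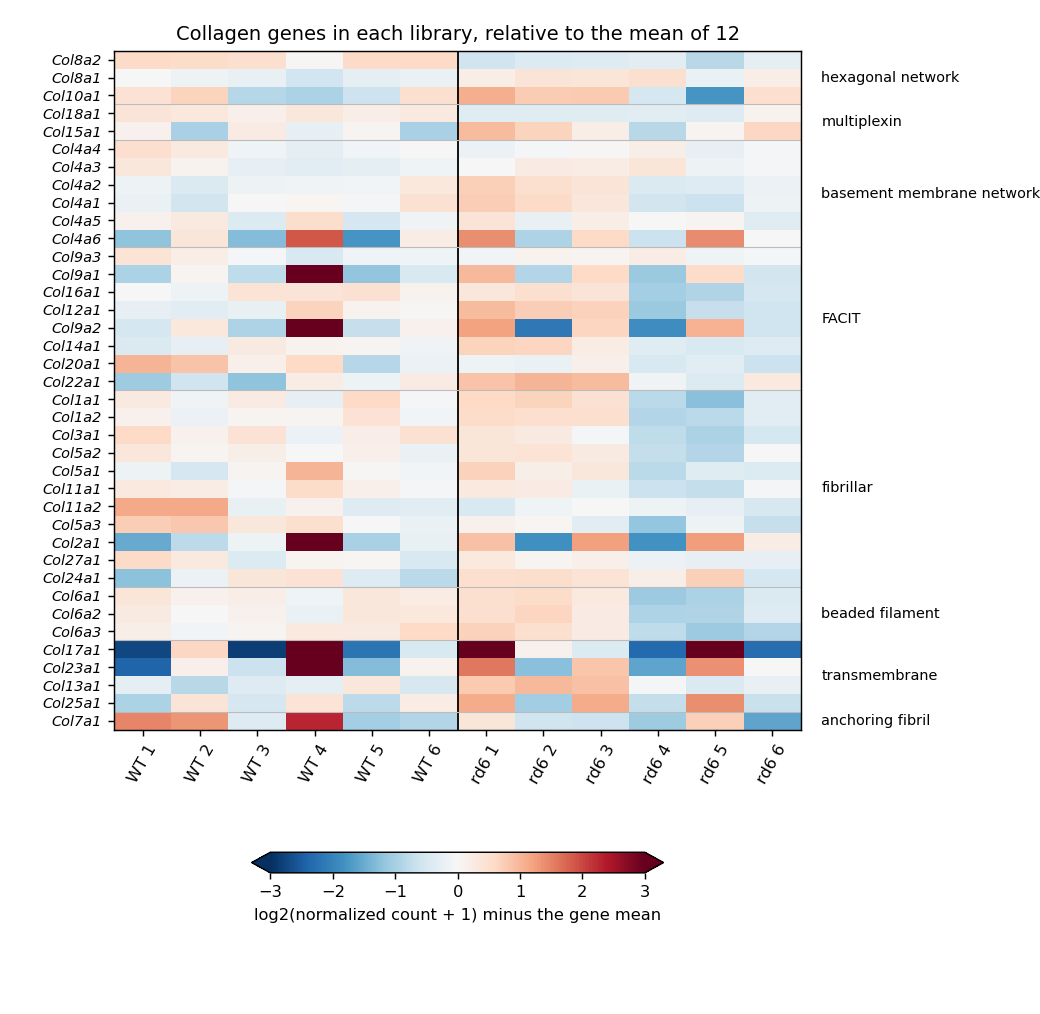
The 38 tested collagen genes (by class) in each of the 12 libraries, as log2(normalized count + 1) minus the mean of the gene over all libraries, in red above and in blue below, with colours that stop at 3 and -3. The *Col8a2* and *Col18a1* lines split by genotype, that of *Col8a1* does so but for 1 rd6 library, most fibrillar and beaded filament genes are lowest in rd6 4 or rd6 5, and *Col17a1*, *Col23a1*, *Col9a1*, *Col9a2* and *Col2a1* are highest in WT 4.

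A further set of genes varied within a genotype far more than between them. In 7 of the 38 tested genes the highest WT library exceeded the lowest by more than 10 times: *Col17a1*, *Col23a1*, *Col9a1*, *Col9a2*, *Col4a6*, *Col7a1* and *Col2a1*. In all 7 the highest WT library was replicate 4. *Col17a1*, the hemidesmosomal collagen of basal keratinocytes, had 6100 counts there and 16.6 to 191 in the other WT libraries, and in rd6 it peaked at 1823 in replicate 5 and 1027 in replicate 1. Summed keratin counts were 187647 in WT replicate 4, 116171 in rd6 replicate 5 and 62532 in rd6 replicate 1, and 7.26 to 23590 in all others. The part of surface epithelium in these values was not tested. *Col7a1*, which forms the anchoring fibrils under squamous epithelia, had the same 3 libraries among its higher ones, at 391, 131 and 103, beside WT replicates 1 and 2 at 219 and 198.

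The 4 transmembrane genes all had log2 fold changes above 0, with a median of 0.52, and none passed. *Col13a1*, found at cell adhesions and the neuromuscular junction, came nearest, with 89.8 to 204 counts in WT and 117 to 316 in rd6 (0.64 ± 0.27, q = 0.110). It passed with DESeq2 and without rd6 replicate 5. *Col17a1* and *Col23a1* had 95% intervals of -2.57 to 3.90 and of -1.49 to 2.11, which include several-fold changes in both directions. Their mean counts went against the sign of their log2 fold changes. The means were 1074 in WT and 521 in rd6 for *Col17a1*, and 583 and 434 for *Col23a1*, with WT replicate 4 the highest library for both. *Col25a1*, a neuronal transmembrane collagen, was low at 8.25 to 48.8 counts over all libraries. *Col19a1*, *Col26a1* and *Col28a1* had at most 10 reads in any library, and for none of the 6 genes under the mean of 10 did the genotypes separate.

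The genes that make, export and hold collagen were counted in 6 lists from the same test. Of the 85 genes tested in these lists 11 were higher in rd6 and 4 lower, 12.9% and 4.71%, beside 11.4% and 11.6% of all genes. Without WT replicate 4 the number higher was 21, or 24.7% beside 13.7% of all genes, and without the 3 libraries rich in surface epithelium it was 18, or 21.2% beside 10.97%. Of 18 genes for hydroxylation, glycosylation and folding of the chains, 4 (22.2%) were higher, beside 11.4% of all genes, and none was lower, beside 11.6%. *Sparc*, a collagen-binding matrix glycoprotein and the most abundant of them, had 19303 to 23688 counts in WT and 25630 to 34341 in rd6, without overlap (log2 fold change 0.48 ± 0.08, q = 0.00108). *P3h3*, a partner of lysyl hydroxylase, had the largest rise among the called genes of the list, 0.48 ± 0.06 (q = 9.5e-05), with 964 to 1131 counts in WT and 1314 to 1605 in rd6. The chaperone *Serpinh1* (HSP47), which binds procollagen in nearly all collagen-making cells, had 6399 ± 711 and 6583 ± 942 (q = 0.841). *Serpinh1* was picked out after its values were seen.

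Of 12 tested genes for export and propeptide removal, 1 (8.33%) was higher, a share near the 11.4% of all genes, and none was lower, beside 11.6%. It was *Pcolce*, the enhancer of the procollagen C-proteinase, which speeds the removal of the C-propeptide from fibrillar collagens. *Pcolce* was also the most abundant of the list, with 9609, 12041 and 13065 counts as lowest, median and highest WT value and 29859, 31809 and 34343 in rd6. The rd6 libraries lay far above all WT libraries (log2 fold change 1.44 ± 0.07, 2.71-fold, q = 4.21e-08). The fibrillar genes *Col1a1*, *Col1a2* and *Col3a1* did not pass the test, as given above. *Bmp1*, the proteinase that *Pcolce* assists, had 863 ± 86.1 and 962 ± 130 (q = 0.284).

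Of 7 cross-linking enzymes, 2 (28.6%) were lower in rd6, beside 11.6% of all genes, and none was higher, beside 11.4%. *Loxl4*, a lysyl oxidase, had 1678 to 3139 counts in WT and 903 to 1255 in rd6, without overlap (-1.13 ± 0.13, q = 4.98e-05). *Pxdn*, peroxidasin, which forms the sulfilimine bonds that join type IV collagen hexamers, was at 1380 ± 324 and 903 ± 208 (-0.61 ± 0.18, q = 0.0264). *Loxl1*, the most abundant of the list and needed for elastic fibers, did not pass (6873 ± 715 and 7618 ± 702, q = 0.202).

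Of 10 tested collagen receptors, *Lair1* alone was higher in rd6, 1 of 10 beside 11.4% of all genes, and none was lower, beside 11.6%. *Lair1*, an inhibitory receptor of leukocytes that binds collagen, had 37.6 to 63.1 counts in WT and 94.0 to 200.5 in rd6 (1.48 ± 0.20, q = 0.000177). Of 10 markers of microglia or macrophages 9 were higher in rd6 as well, beside 11.4% of all genes, with sums of 15827 to 20696 in WT and 24272 to 34338 in rd6, and their part in *Lair1* was not tested. *Ddr1*, the discoidin domain receptor of epithelia and the most abundant receptor, had 5785 ± 294 and 5998 ± 302 (q = 0.476).

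Among 17 other basement membrane genes, 1 was higher in rd6 and 2 were lower, 5.88% and 11.8% beside 11.4% and 11.6% of all genes. *Smoc2*, a secreted calcium-binding matricellular protein, fell most, from 254 ± 56.7 to 89.7 ± 16.6 counts without overlap (-1.48 ± 0.16, q = 3.57e-05). *Nid2*, a nidogen that links laminin to type IV collagen and the most abundant of the list, was at 7625 ± 458 and 6354 ± 629 (-0.27 ± 0.07, q = 0.0148). *Lamc1*, the γ1 chain shared by most laminins, was the gene that rose (1271 ± 186 and 1559 ± 142, 0.30 ± 0.09, q = 0.0342).

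Of 21 genes for fibril and elastic partners, 4 (19.0%) were higher in rd6, beside 11.4% of all genes, and none was lower, beside 11.6%. *Postn* (periostin), which binds fibrillar collagen, rose most, from 79.9 to 165 counts in WT to 236 to 584 in rd6 (1.53 ± 0.24, q = 0.000548). *Fbn1*, fibrillin-1 and the most abundant of the list, had 7914 ± 1268 and 8446 ± 907 (q = 0.523).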

How the data were processed

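RNA of 6 WT and 6 rd6 RPE samples was sequenced as read pairs from stranded total-RNA libraries. According to the study's methods, the authors aligned and counted reads on mm10 with Rsubread at standard parameters and tested them with DESeq2, and the submitters' notes also name bcl2fastq and FastQC. Versions and use of strand are not given in the sources used here. The authors deposited a normalized signal for each gene in each library (reads over the size factor) and its mean. They also deposited the log2 fold change with its standard error, the Wald score and the p-value of their own comparison, which were not used.

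Of 28596 entries, 5 repeats were dropped. Reads per gene were recovered, 100% as whole numbers (within 0.01 read). limma 3.58.1 (R 4.3.3, trend) was fitted to log2(value + 1) of 17768 genes averaging 10 or more, with genotype as the only term, and calls were made at q < 0.05. Fold changes on this scale understate those of low genes. GENCODE M21 (GRCm38) gave coordinates and exon lengths for 28510 genes. RefSeq promoters (GRCm38.p6) matched 35 of the 44 members. The script was tested on simulated data.

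There were 23 alternatives: pseudocounts 0.1 and 10, other filters on low values, TMM and median-ratio rescaling, edgeR 4.0.16 and DESeq2 1.42.0 on recovered reads, the replicate number as a block, each library left out, and 1 added after seeing the data, without the 3 libraries with the highest keratin sums. Members and lists were chosen with earlier results of these data known. Text values were due for members called past the fold limit, all type IV genes, *Col1a1*, *Col1a2*, *Col3a1*, *Col8a1*, *Col8a2*, *Col15a1*, *Col18a1*, the 5 highest per kb, and the leading genes of each pathway list (largest rise and fall among called genes, most abundant). Other members and genes were named after their values were seen.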

Additional observations from a re-analysis of the deposited data

Results flagged for a closer look

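In 11 of the 76 groups of 6 libraries (38 genes, 2 genotypes) the highest or lowest library stood apart from the others, with a gap to its neighbour too large a part of the group's range by Dixon's 95% limit. For independent groups of normally distributed values, chance alone gives this in about 1 group in 20. The groups here share the same 12 libraries and the distribution of the counts was not checked, so that rate need not hold. WT replicate 4 accounted for 9 of the 11. It was high for 8 genes: 6100 counts of *Col17a1* against at most 191 in the other WT libraries, 2513 of *Col23a1* (at most 319), 2442 of *Col9a1* (at most 193), 1052 of *Col12a1* (at most 715), 987 of *Col4a6* (at most 349), 835 of *Col9a2*, 621 of *Col2a1* (at most 41.5) and 528 of *Col5a1* (at most 274). It was low for *Col8a2*, at 70914 against 97193 or more. The same library had the highest keratin sum of all, 187647, and the lowest sum of RPE markers in WT, 1536308. The part of either in these values was not tested.

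The other libraries that stood apart were rd6 replicate 6 for *Col18a1*, at 18094 against at most 13534 in the other rd6 libraries, and WT replicate 5 for *Col13a1*, at 204 against at most 132.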

How the results depend on the processing

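*Col8a1*, *Col8a2* and *Col18a1* kept their direction and call in all 23 alternatives, and *Col5a3* in 11. The number of collagen genes higher in rd6, 1 in the main analysis, was 3 with DESeq2 on recovered reads (*Col13a1* and *Col22a1* added), 2 without the 3 libraries rich in surface epithelium (*Col22a1* added), and 1 to 3 when each library was left out in turn. It was 2 without WT replicate 4 (*Col22a1*) or rd6 replicate 4 (*Col15a1*) and 3 without rd6 replicate 5 (*Col13a1* and *Col22a1*). The number lower, 3, was 2 to 4 over the same omissions, with *Col20a1* added without WT replicate 5 and *Col3a1* without rd6 replicate 1. The number of pathway genes higher, 11, was 9 to 21 when each library was left out, 21 without WT replicate 4, and 18 without the 3 libraries. The cause was not tested.

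Genes near 0 changed sign when 1 library was left out. Over these omissions the log2 fold change of *Col4a5* ranged from -0.063 to 0.14 (-0.04 without WT replicate 3, -0.063 without WT replicate 5, -0.04 without rd6 replicate 1, -0.0008 without rd6 replicate 3), that of *Col4a1* from -0.038 to 0.24 (-0.038 and -0.001 without rd6 replicates 1 and 2), that of *Col9a3* from -0.038 to 0.13 (-0.038 without WT replicate 4) and that of *Col1a2* from -0.29 to 0.00045 (0.00045 without rd6 replicate 4). Others kept their sign but moved by over 1.5 times: *Col4a2* from 0.069 (without rd6 replicate 1) to 0.30 (without rd6 replicate 4) and *Col4a4* from -0.16 (without WT replicate 4) to -0.0048 (without WT replicate 1).

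Under a block for the replicate number, the same 4 collagen genes were called, 1 higher and 3 lower, and pathway counts were 9 and 3. The numbers do not pair the libraries: deviations of same-numbered libraries correlated at -0.74 to 0.31 (mean -0.25), and no library correlated best with its own number. With TMM rescaling 55.6% of all calls were higher, against 49.5%. Depth limits the 6 genes below a mean of 10.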
